A study of Mus musculus with 12 samples.

Results

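Hepatic transcript levels of 10 genes that build and remodel phosphatidylcholine (PC) and phosphatidylethanolamine (PE) were examined in livers of mice fed a fast-food diet (FFD) with and without deletion of PPARγ in hepatocytes. The genes were taken by name from a list of enzymes, not by a threshold on measured values, but with earlier results of these data known. All 10 were present among the 54532 genes counted in each library. They are the choline kinases Chka and Chkb, the ethanolamine kinase Etnk2, the cytidylyl transferases Pcyt1a and Pcyt2, the phosphotransferases Chpt1 and Cept1, and the lysophosphatidylcholine acyltransferases Lpcat1, Lpcat2 and Lpcat3.

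PC and PE are the main phospholipids of cell membranes, and in liver PC also coats lipid droplets and very low-density lipoprotein particles and is secreted into bile. In the Kennedy pathways, choline or ethanolamine is phosphorylated by a kinase, activated to CDP-choline or CDP-ethanolamine by a cytidylyl transferase, and joined to diacylglycerol by a phosphotransferase. In the Lands cycle, phospholipases remove a fatty acyl chain from the finished phospholipid and acyltransferases of the LPCAT type put another in its place.

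All mice were males with floxed PPARγ alleles (PPARγ flox/flox), injected at 8 weeks of age with an adeno-associated virus and fed FFD from then on, so neither a chow diet nor an uninjected animal is part of these comparisons. PPARγ-KO mice received AAV8-TBG-Cre and their wild-type (WT) littermates AAV8-TBG-eGFP, and liver RNA was sequenced after 2 or 5 months of FFD, with 3 libraries for each genotype at each time. The TBG promoter is active in hepatocytes, so the other cells of the liver kept PPARγ, and in whole-liver RNA fewer cells of a type and less RNA per cell cannot be told apart. Nothing in the labels ties a library to a named animal. The p-values set the difference between groups against the spread between these libraries, which is estimated for each gene with help from all genes tested.

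The 12 libraries held 16367775 to 27452284 counts each, of which 4.70% to 6.44% fell on mitochondrial genes, and WT replicate 1 of 2 months was the least like its fellow replicates. Pparg, the gene targeted, was not lower in the libraries whose labels give PPARγ-KO (KO-labelled libraries): it had 39.3 ± 1.91 normalized CPM, counts per 1000000 counts of the scaled library, in WT and 56.3 ± 8.84 in KO-labelled libraries at 2 months, and 38.4 ± 2.54 and 84.8 ± 9.06 at 5 months (SD, n = 3 each; edgeR adjusted p = 0.0309 and 2.57e-06). The counts were made per gene and not per exon, so the deleted exons could not be read apart, and every direction given below rests on the labels of the libraries. Under scaling by library size alone, without TMM, the genes called between genotypes were 171 higher and 349 lower at 2 months against 259 and 260 with TMM, and 889 higher and 1894 lower at 5 months against 1258 and 1344. Between the times, that scaling gave 2745 higher and 3872 lower in WT libraries against 3442 and 3283, and 2741 and 3725 in KO-labelled libraries against 3287 and 3215.

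The stretches of 250 bases upstream of the start sites are shown for the members whose level differed between the genotypes, so that the regulatory sequence can be read beside the values. They were taken from RefSeq on GRCm38.p6, the same assembly as mm10, in which 9 of the 10 members had an entry (Pcyt2 is named only). All run 5′ to 3′ toward the start site, and capitals mark matches on either strand to a CCAAT box (CCAAT), a sterol regulatory element (TCACNCCAC) or the TGACG core of a cAMP response element.
Chka, chr19:3851523-3851772, plus strand: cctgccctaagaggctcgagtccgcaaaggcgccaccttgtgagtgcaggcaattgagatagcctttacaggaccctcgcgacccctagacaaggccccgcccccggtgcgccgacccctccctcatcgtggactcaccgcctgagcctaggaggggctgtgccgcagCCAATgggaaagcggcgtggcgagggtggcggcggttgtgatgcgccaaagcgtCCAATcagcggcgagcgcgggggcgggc
Etnk2, chr1:133363322-133363571, plus strand: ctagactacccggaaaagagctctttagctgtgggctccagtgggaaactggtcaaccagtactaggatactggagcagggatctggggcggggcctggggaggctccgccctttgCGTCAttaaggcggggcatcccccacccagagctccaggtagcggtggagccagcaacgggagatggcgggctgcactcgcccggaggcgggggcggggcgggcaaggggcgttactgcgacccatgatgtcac
Pcyt1a, chr16:32430671-32430920, plus strand: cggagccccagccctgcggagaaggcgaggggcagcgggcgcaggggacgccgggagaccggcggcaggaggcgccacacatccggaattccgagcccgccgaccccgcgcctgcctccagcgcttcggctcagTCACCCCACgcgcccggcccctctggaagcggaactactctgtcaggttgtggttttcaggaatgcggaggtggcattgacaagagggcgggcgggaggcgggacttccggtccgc
Chpt1, chr10:88503971-88504220, minus strand: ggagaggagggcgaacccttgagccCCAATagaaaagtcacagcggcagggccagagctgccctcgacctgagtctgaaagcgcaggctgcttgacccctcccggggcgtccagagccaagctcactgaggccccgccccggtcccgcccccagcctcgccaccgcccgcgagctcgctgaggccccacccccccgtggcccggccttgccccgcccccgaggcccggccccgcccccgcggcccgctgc
Lpcat2, chr8:92855083-92855332, plus strand: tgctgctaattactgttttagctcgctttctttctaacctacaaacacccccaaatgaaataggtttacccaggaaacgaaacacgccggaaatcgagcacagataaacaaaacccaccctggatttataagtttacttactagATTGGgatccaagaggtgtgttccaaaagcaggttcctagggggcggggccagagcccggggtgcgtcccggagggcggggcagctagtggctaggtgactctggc

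Chka held 2 CCAAT boxes, and Chpt1 and Lpcat2 held 1 each, against 33.8% of the 32851 promoter entries of the table with at least 1 in the same stretch. Pcyt1a held the sterol regulatory element, which 1.05% of the entries hold, and Etnk2 the TGACG core, which 17.8% hold. None of the 9 members had, in this stretch, the hexamer AGGTCA that nuclear receptors bind (14.0% of entries), and so none had its direct repeats DR1 and DR4, with 1 or 4 bases between the copies (0.0335% and 0.0152%), nor was there an E-box, CACGTG (6.02%). The stretches of the 9 members held 51.2% to 75.6% G and C, against a median of 52.4% over all entries, and the shares of entries were not matched for this. All 9 held the GC box GGGCGG, which 32.7% of entries hold and which is not capitalised. These are matches of letters and not measured binding sites, and the absence of a match says only that these letters are not in this window.

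The members spanned a wide range of abundance. Compared per length, as normalized CPM per kb of the exon length given in the files, Pcyt2 was the most abundant (median over the 12 libraries 103.0), followed by Etnk2 (66.9), Chpt1 (45.8), Lpcat3 (45.0), Cept1 (23.6), Pcyt1a (15.3), Chka (4.77), Lpcat2 (1.68), Lpcat1 (1.11) and Chkb (0.251). The libraries of Pcyt2 and Etnk2 overlapped on this scale, as did those of Etnk2, Chpt1 and Lpcat3, of Chka and Lpcat2, and of Lpcat2 and Lpcat1. Cept1, Pcyt1a and Chkb each overlapped with none of the others. Within each type of enzyme, 1 gene supplied most of the transcript per length in the 12 libraries. Chka made up 80.9% to 100% of the choline kinases and Chpt1 62.1% to 73.1% of the phosphotransferases. Chkb shares 1552 exon bases on its own strand with Gm44502, which had no count in any library. How reads from shared bases were counted is not given in the sources used here, so the level of Chkb and the share of Chka are uncertain. Lpcat3 made up 90.1% to 96.0% of the Lpcat genes. Pcyt2 made up 85.1% to 88.6% of the cytidylyl transferases, although it and Pcyt1a act in parallel pathways and not on the same step.

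**Figure D1:**
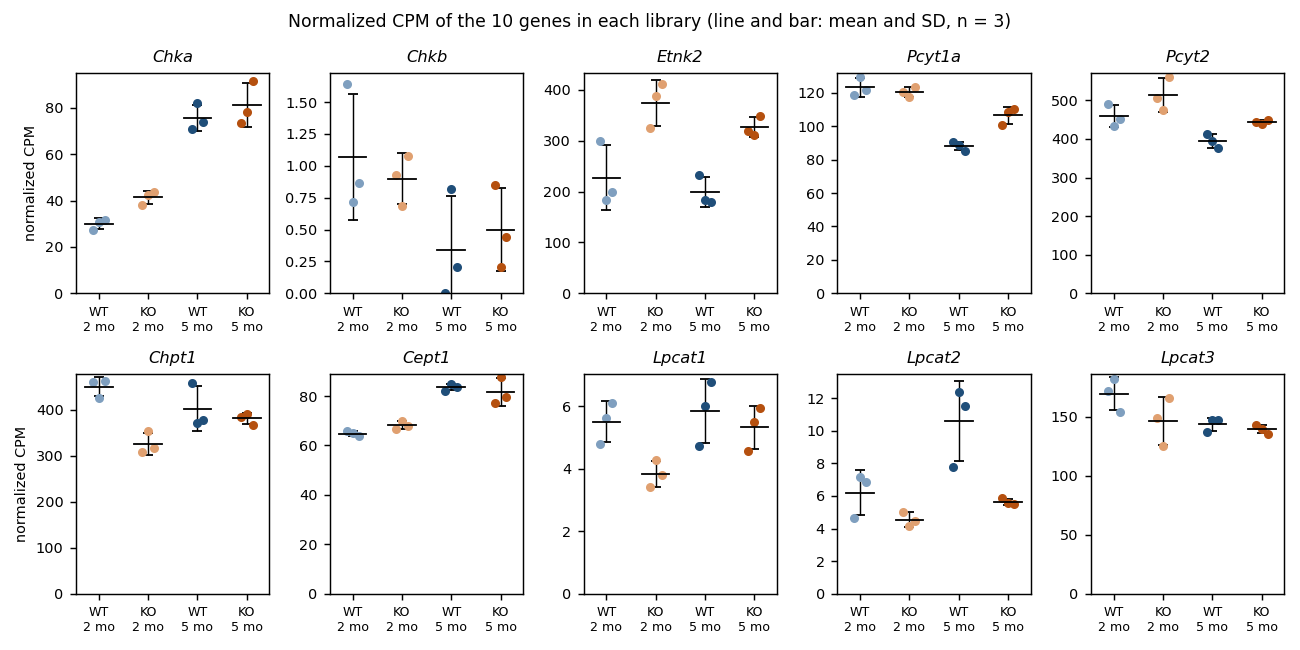
Normalized CPM (vertical axis, from 0, with its own scale for each gene) of the 10 genes in the 3 libraries of each group, with a horizontal line at the mean and a bar of 1 SD. Etnk2 lies higher in the KO-labelled libraries at both times, from 310.9 to 411.4 against 179.5 to 300 in WT libraries, and Chka lies higher at 5 months than at 2 months in both genotypes.

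At 2 months, 2 of the 10 members differed between KO-labelled libraries and WT at an edgeR adjusted p under 0.05, against 3.56% of the 14573 genes tested: Chka rose and Chpt1 fell. At 5 months, 3 of the 9 members tested differed, against 18.4% of the 14138 genes tested: Etnk2 and Pcyt1a rose and Lpcat2 fell. No member passed the threshold at both times. In 5 of 10 members at 2 months and 4 of 9 at 5 months the libraries of the groups did not overlap, against 24.1% and 34.8% of all genes tested. The median log2 change of the members was -0.12 at 2 months and -0.02 at 5 months, against -0.00 and -0.01 over all genes tested. With the replicate number as a block, the same number of members, 2 and 3, passed, while over all genes the count at 2 months went from 519 to 817.

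**Figure D2:**
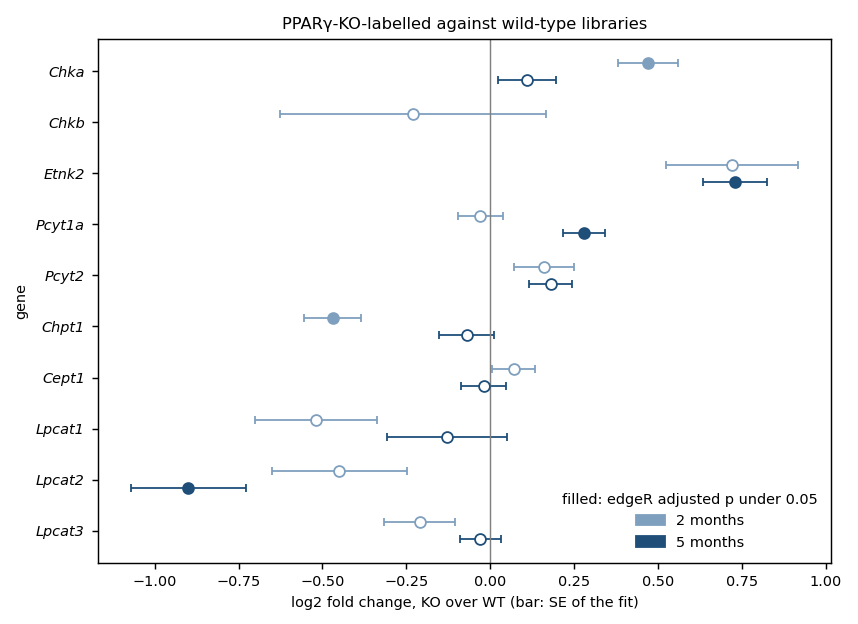
Log2 change of each gene in KO-labelled libraries over WT (horizontal axis, bar: SE of the edgeR fit) at 2 months (light) and 5 months (dark), filled where the edgeR adjusted p was under 0.05. Chka and Chpt1 are filled at 2 months, at 0.47 and -0.47, and Etnk2, Pcyt1a and Lpcat2 at 5 months, at 0.73, 0.28 and -0.90, while Chkb was not tested at 5 months.

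Chka (ENSMUSG00000024843, chr19:3851773-3894369), which encodes choline kinase alpha, the enzyme that makes phosphocholine, was 1.38-fold higher in the KO-labelled libraries at 2 months. Its normalized CPM was 27.3, 30.7 and 31.8 in the WT libraries and 38.2, 42.3 and 43.6 in those labelled KO. All 3 of the latter lay above all 3 of the former, and the log2 change was 0.47 (SE 0.0893, edgeR adjusted p = 0.0223). The call did not survive scaling by library size alone (0.39, edgeR adjusted p = 0.0639) or the omission of WT replicate 2 or 3 or of any KO-labelled replicate, with log2 changes of 0.43 to 0.52 and edgeR adjusted p from 0.0549 to 0.0843. At 5 months the libraries overlapped, at 71.0, 81.9 and 73.7 in WT and 73.5, 78.2 and 91.6 in KO-labelled libraries (log2 change 0.11, SE 0.0873, edgeR adjusted p = 0.434).

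Chkb (ENSMUSG00000022617, chr15:89426360-89429908), the beta form of choline kinase, was near the limit of detection, with 0 to 30 counts in a library. Its level was 0.684 to 1.64 normalized CPM at 2 months and 0 to 0.849 at 5 months, where WT replicate 1 had no count, which allows up to 0.178 normalized CPM (3 counts, counting error only). The genotypes did not separate at 2 months (edgeR adjusted p = 0.809), and too few counts were left for a test at 5 months. Part of its exons is shared with other annotated genes, so even these few counts are uncertain.

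Etnk2 (ENSMUSG00000070644, chr1:133363572-133380336), an ethanolamine kinase enriched in liver that makes phosphoethanolamine, showed the largest rise among the members between the genotypes. At 5 months its normalized CPM was 233.2, 183.6 and 179.5 in WT libraries and 319.5, 310.9 and 348.1 in KO-labelled libraries. The groups were well apart, and the level was 1.65-fold higher in the latter (log2 change 0.73, SE 0.095, edgeR adjusted p = 0.000293), with the call kept under every alternative tried (adjusted p 3.63e-20 to 0.0235).

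The change in Etnk2 was of the same size at 2 months but did not pass the threshold. Its normalized CPM was 300, 183.3 and 198.3 in WT libraries and 323.9, 387.4 and 411.4 in KO-labelled libraries. The groups did not overlap, but WT replicate 1 lay close to the lowest KO-labelled library, and the log2 change of 0.72 had an SE of 0.197 (edgeR adjusted p = 0.108). Without that replicate, the log2 change was 0.97 and passed (edgeR adjusted p = 0.000303), and it also passed with DESeq2 (adjusted p = 0.00138), without a filter on low counts (0.0224) and with all 12 libraries in one fit (0.0347). The difference between the genotype effects at 5 and 2 months was -0.01 (SE 0.251, edgeR adjusted p = 0.997).

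Pcyt1a (ENSMUSG00000005615, chr16:32430921-32475070) encodes CTP:phosphocholine cytidylyl transferase alpha, the rate-limiting enzyme of the CDP-choline pathway. At 2 months its normalized CPM was 118.6, 129.4 and 121.3 in WT libraries and 120.3, 117.2 and 123.6 in KO-labelled libraries, which overlapped (log2 change -0.03, SE 0.0672, edgeR adjusted p = 0.844). At 5 months it was 90.2, 88.9 and 85.3 in WT libraries and 100.5, 108.7 and 110.1 in KO-labelled libraries. All 3 of the latter lay above the WT range, 1.22-fold higher on average (log2 change 0.28, SE 0.063, edgeR adjusted p = 0.00744). The call held under every alternative tried (adjusted p 0.00242 to 0.0479), and both groups lay below all libraries of 2 months.

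Pcyt2 (ENSMUSG00000025137, chr11:120610087-120617936), which encodes the cytidylyl transferase that makes CDP-ethanolamine, did not pass at either time. At 5 months its normalized CPM was 413.0, 395.3 and 376.7 in WT libraries and 444.9, 437.7 and 449.5 in KO-labelled libraries. The groups did not overlap, with a log2 change of 0.18 (SE 0.0649, edgeR adjusted p = 0.0741), and the threshold was passed with DESeq2 (adjusted p = 0.0492) and without WT replicate 1 (0.21, edgeR adjusted p = 0.0152). At 2 months the libraries overlapped, with 434.3 to 491.4 in WT and 475.8 to 561.1 in KO-labelled libraries (log2 change 0.16, edgeR adjusted p = 0.375).

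Chpt1 (ENSMUSG00000060002, chr10:88452745-88504073), the choline phosphotransferase that completes PC from CDP-choline, was 1.38-fold lower in KO-labelled libraries at 2 months. Its normalized CPM was 460.7, 426.6 and 463.3 in WT libraries and 307.5, 353.1 and 317.1 in KO-labelled libraries. The groups were apart by more than the spread within either (log2 change -0.47, SE 0.0839, edgeR adjusted p = 0.0193). The call was lost without WT replicate 2 or 3 or KO replicate 1 or 3, at log2 changes of -0.50 to -0.43 and edgeR adjusted p from 0.0508 to 0.108. At 5 months Chpt1 had 458.6, 371.0 and 378.3 in WT libraries and 384.5, 392.1 and 368.1 in KO-labelled libraries. WT replicate 1 lay above all the others and the rest were mixed (log2 change -0.07, SE 0.0823, edgeR adjusted p = 0.642).

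Cept1 (ENSMUSG00000040774, chr3:106502260-106547802), which joins either CDP-choline or CDP-ethanolamine to diacylglycerol, differed little between the genotypes. At 2 months its normalized CPM was 63.9 to 65.7 in WT libraries and 66.7 to 69.9 in KO-labelled libraries, which did not overlap but differed by only 0.07 in log2 units (SE 0.0634, edgeR adjusted p = 0.603) and by -0.01 with library size alone. At 5 months the ranges of 82.2 to 84.8 and 77.3 to 87.9 overlapped (log2 change -0.02, edgeR adjusted p = 0.846). Per length, Chpt1 was 2.46 to 2.72 times the level of Cept1 in the WT libraries at 2 months and 1.73 to 1.89 times in those labelled KO. At 5 months the ratio was 1.64 to 2.09 and 1.67 to 1.86, overlapping between the genotypes.

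Lpcat2 (ENSMUSG00000033192, chr8:92855339-92919279), an acyltransferase known mainly from leukocytes, where it also takes part in making platelet-activating factor, showed the largest fall among the members between the genotypes. At 5 months its normalized CPM was 7.76, 12.4 and 11.5 in WT libraries and 5.85, 5.54 and 5.49 in KO-labelled libraries, from 87 to 221 counts. The KO-labelled libraries were tightly grouped below all WT libraries, 1.87-fold lower (log2 change -0.90, SE 0.171, edgeR adjusted p = 0.00276), and the call held under every alternative tried (adjusted p 1.44e-07 to 0.0196). At 2 months it was 4.64, 7.15 and 6.85 in WT libraries and 5.02, 4.16 and 4.47 in KO-labelled libraries. WT replicate 1 fell within the range of the other group (log2 change -0.45, SE 0.201, edgeR adjusted p = 0.262), and without it the threshold was passed at -0.62 (edgeR adjusted p = 0.0469).

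The macrophage markers, like Lpcat2, lay lower in the KO-labelled libraries at 5 months, but not at 2 months. The 10 of them, among them Adgre1 and Csf1r, summed to 896.0 to 1094 normalized CPM in the WT libraries at 5 months and to 427.7 to 636.3 in those labelled KO. In the latter 8 of the 10 were called lower, where 9.51% of all genes were. At 2 months the sums of 359.1 to 440.6 in WT and 377.4 to 455.6 in KO-labelled libraries overlapped. There 1 marker was called higher and 1 lower, where 1.78% of all genes were called in each direction. None of the 10 was at 0 in any library. The 6 neutrophil markers summed to 6.76 to 9.62 normalized CPM in WT and 5.02 to 5.99 in KO-labelled libraries at 2 months. At 5 months their sums were 8.35 to 14.0 and 4.61 to 7.27. The sums of the stellate cell markers, given below, were also lower in KO-labelled libraries at both times. The part of macrophages or of any other cells in the level of Lpcat2 was not tested.

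**Figure D3:**
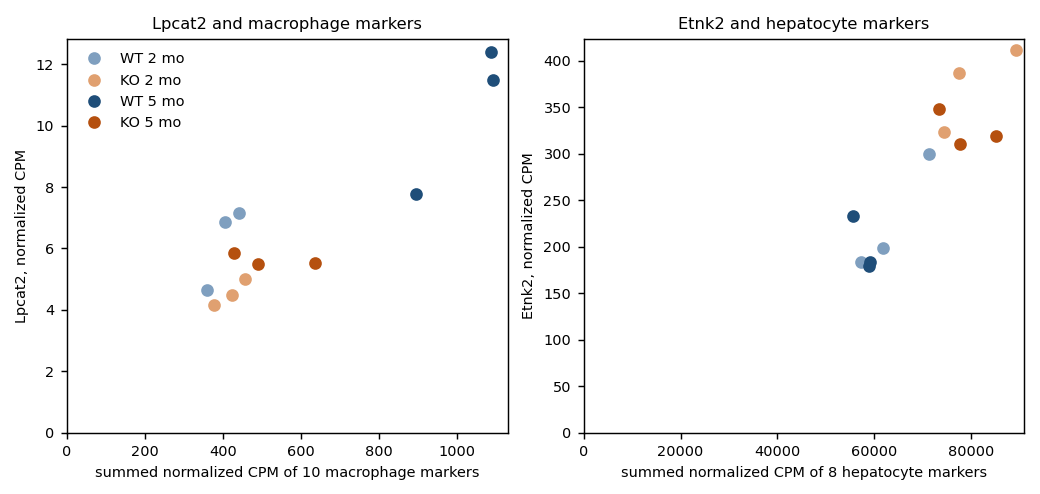
Normalized CPM of Lpcat2 against the summed normalized CPM of 10 macrophage markers (left) and of Etnk2 against that of 8 hepatocyte markers (right), 1 point per library, coloured by group, all axes from 0. The 3 WT libraries of 5 months stand apart at 896.0 to 1094 summed macrophage CPM with 7.76 to 12.4 CPM of Lpcat2, and the KO-labelled libraries lie at 73503 to 89362 summed hepatocyte CPM with 310.9 to 411.4 CPM of Etnk2.

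The summed level of 8 hepatocyte markers lay higher in the KO-labelled than in the WT libraries at both times, as did Etnk2, with most of the sum coming from Alb (33800 to 63500 normalized CPM in the 12 libraries). The 8 summed to 57194 to 71397 normalized CPM in WT and 74487 to 89362 in KO-labelled libraries at 2 months, and to 55626 to 59191 and 73503 to 85204 at 5 months. The single markers did not all run the same way. At 2 months 7 had a log2 change above 0 and 1 below, with 1 called higher (Serpina1c), where 1.78% of all genes were. At 5 months 5 were above 0 and 3 below, with a median of 0.16, and 2 were called higher (Alb and Tat), where 8.90% of all genes were. None was called lower at either time, although in 1 of the 8 all KO-labelled libraries lay below all WT libraries at 5 months. WT replicate 1 at 2 months had the highest Etnk2 of the 6 WT libraries and also the highest sum, 71397. The part of the hepatocyte share in the level of Etnk2 was not tested.

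Of 8 stellate cell and myofibroblast markers, 1 was called lower at 2 months (Dcn), where 1.78% of all genes were. At 5 months 4 of the 7 tested were called lower (Col1a1, Col3a1, Acta2 and Dcn), where 9.51% of all genes were. The sums were 432.5 to 592.3 in WT against 317.4 to 349.4 in KO-labelled libraries at 2 months. At 5 months they were 559.4 to 696.6 against 423.3 to 477.6. Also called lower at 5 months were 3 of 7 endothelial markers, 2 of 3 tested B cell markers and 2 of 3 tested neutrophil markers. The lists held 4 B cell and 6 neutrophil markers, and the neutrophil marker Ly6g was at 0 in 10 of the 12 libraries. Of 6 cholangiocyte markers, 5 were tested at 5 months, with 3 above 0 in log2 change and 2 below. Of these Sox9 was called higher, where 8.90% of all genes were. The sums of the 6 were 100.3 to 181.7 in WT against 68.1 to 88.3 in KO-labelled libraries at 2 months. At 5 months they overlapped, at 136.8 to 279.9 against 208.8 to 250.4. None of the 6 T and NK cell markers was called at either time, with 1 tested at 2 months and 5 at 5 months.

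Lpcat1 (ENSMUSG00000021608, chr13:73467197-73516422), best known for the saturated PC of lung surfactant, was expressed at a low level, with 66 to 130 counts in a library. At 2 months its normalized CPM was 4.8, 5.61 and 6.09 in WT libraries and 3.42, 4.27 and 3.8 in KO-labelled libraries. The latter lay below all WT libraries, but the log2 change of -0.52 (SE 0.182) missed the threshold (edgeR adjusted p = 0.154). At 5 months the ranges of 4.74 to 6.78 and 4.58 to 5.93 overlapped (log2 change -0.13, edgeR adjusted p = 0.679).

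Lpcat3 (ENSMUSG00000004270, chr6:124663027-124704418), the main hepatic member of its family, which puts polyunsaturated chains into PC, did not differ between the genotypes beyond the spread of the libraries. Its normalized CPM was 172.0, 182.6 and 154.5 in WT and 149.1, 125.4 and 165.8 in KO-labelled libraries at 2 months (log2 change -0.21, SE 0.106, edgeR adjusted p = 0.33). At 5 months the libraries of both groups lay between 135.9 and 147.1 (log2 change -0.03, SE 0.0614, edgeR adjusted p = 0.769). Its exons overlap those of Emg1 on the opposite strand by 334 bases, as those of Cept1 overlap Dennd2d by 771 bases, and Emg1 had 497 to 943 counts and Dennd2d 175 to 412. The strand of counting is not given in the sources used here, so reads from these stretches cannot be told apart.

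Whether the genotype effect itself differed between the times was tested in a fit of all 12 libraries. None of the 10 members passed the edgeR threshold, against 1.57% of the 15127 genes tested (0.661% higher and 0.912% lower). In the edgeR test 3 members had an unadjusted p under 0.05, as did 2250 of the 15127 genes. DESeq2 called 1 member and 594 of all these genes. Pcyt1a moved from -0.03 at 2 months to 0.28 at 5 months, a difference of 0.30 (SE 0.0883) with an edgeR adjusted p of 0.0987 and a DESeq2 adjusted p of 0.0416. Chpt1 moved from -0.47 to -0.07, a difference of 0.39 (SE 0.121, edgeR adjusted p = 0.127), which passed without a filter on low counts (adjusted p = 0.0243) and without WT replicate 1 at 5 months (adjusted p = 0.0281). Chka moved from 0.47 to 0.11, a difference of -0.37 (SE 0.129, edgeR adjusted p = 0.173). For Lpcat2 the difference was -0.46 (SE 0.274, edgeR adjusted p = 0.462). These effects at the individual times were thus not shown to differ, apart from the settings named.

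Between 2 and 5 months of FFD, 5 of the 10 members passed the threshold in WT libraries and 6 in KO-labelled libraries, against 46.4% and 44.9% of all genes tested. The libraries of the times did not overlap in 6 and 7 of the 10 members, against 56.7% and 55.6% of all genes. Spreadsheet dates left in the gene names carry different years in the tables of the 2 times, and whether the libraries were prepared and sequenced together is not given in the sources used here, so that time and batch cannot be told apart. The members' shares were near those of all genes, and the changes below are given as levels of these libraries.

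**Figure D4:**
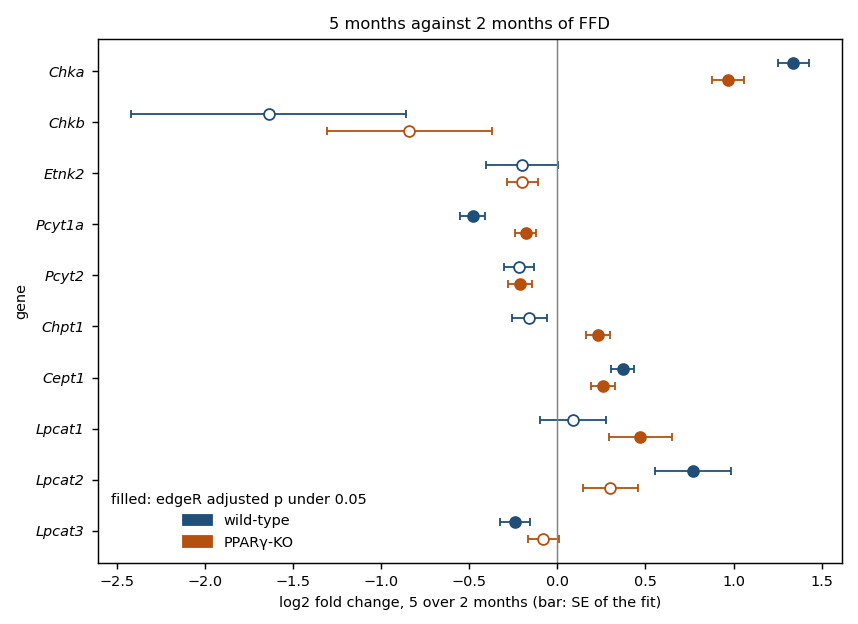
Log2 change of each gene at 5 over 2 months of FFD (horizontal axis, bar: SE of the edgeR fit) in WT libraries (blue) and KO-labelled libraries (orange), filled where the edgeR adjusted p was under 0.05. Chka has the largest called changes, 1.34 and 0.97, and Cept1 (0.37 and 0.26) and Pcyt1a (-0.48 and -0.18) are also filled in both genotypes.

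Chka rose most over time, 2.52-fold in WT libraries (log2 change 1.34, SE 0.086, edgeR adjusted p = 2.56e-06) and 1.95-fold in KO-labelled libraries (0.97, SE 0.0897, edgeR adjusted p = 1.37e-05). All 6 libraries of 5 months, at 71.0 to 91.6 normalized CPM, lay above all 6 of 2 months, at 27.3 to 43.6. Cept1 also rose in both genotypes, by 0.37 in WT libraries (SE 0.0655, edgeR adjusted p = 0.00109) and by 0.26 in those labelled KO (SE 0.0668, edgeR adjusted p = 0.00895). Its 6 libraries of 5 months, at 77.3 to 87.9 normalized CPM, all lay above the 6 of 2 months, at 63.9 to 69.9. Both calls held under every alternative for Chka and for Cept1.

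Pcyt1a was lower at 5 months in both genotypes. In WT libraries it fell by 0.48 in log2 units (SE 0.0704, edgeR adjusted p = 0.000296). In KO-labelled libraries it fell by 0.18 (SE 0.0598, edgeR adjusted p = 0.0292), a call lost with DESeq2 (adjusted p = 0.0714), with the replicate block (0.0503) and without KO replicate 1 or 3 of 2 months or 1 or 2 of 5 months (edgeR adjusted p from 0.0551 to 0.134). The fall in the gene of the rate-limiting enzyme ran beside a rise in Chka, the kinase before it, and in Cept1, a transferase after it.

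In the WT libraries alone, Lpcat2 and Lpcat3 also passed over time. Lpcat2 rose 1.70-fold, from 4.64 to 7.15 normalized CPM at 2 months to 7.76 to 12.4 at 5 months (log2 change 0.77, SE 0.216, edgeR adjusted p = 0.0148), a call lost without WT replicate 2 or 3 of 5 months (edgeR adjusted p = 0.0621 and 0.0558). Beside it, 9 of the 10 macrophage markers were called higher over time in these libraries, where 23.8% of all genes were. Lpcat3 fell by 0.24 in log2 units (SE 0.0835, edgeR adjusted p = 0.0354), a call lost without replicate 2 of 2 months or any replicate of 5 months (edgeR adjusted p from 0.0884 to 0.126). In KO-labelled libraries the log2 changes were 0.30 for Lpcat2 (edgeR adjusted p = 0.134) and -0.08 for Lpcat3 (adjusted p = 0.515), and neither member's change over time was shown to differ between the genotypes.

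Chpt1, Pcyt2 and Lpcat1 passed over time in the KO-labelled libraries and not in WT libraries. Chpt1 rose by 0.23 in log2 units (SE 0.0663, edgeR adjusted p = 0.0169) from its low level at 2 months, a call lost with library size alone (adjusted p = 0.0624) and without KO replicate 1 or 3 of 2 months or 2 of 5 months (edgeR adjusted p from 0.0501 to 0.0808). Pcyt2 fell by 0.21 (SE 0.0679, edgeR adjusted p = 0.0238) in these libraries and differed by -0.22 in WT libraries (SE 0.0859, edgeR adjusted p = 0.0572). The fall in WT libraries passed under DESeq2 (adjusted p = 0.0445), library size alone (0.00515), the replicate block (0.0338), a minimum of 10 counts per library (0.0366) and the joint fit of the 12 libraries (0.0272). The call in KO-labelled libraries was lost without any of 5 of the 6 libraries, all but KO replicate 2 of 2 months (edgeR adjusted p from 0.0529 to 0.0946). Lpcat1 rose by 0.47 (SE 0.178, edgeR adjusted p = 0.0493), just inside the threshold, and lost the call in 9 of the alternatives, among them DESeq2 (adjusted p = 0.0832), library size alone (0.0812), the replicate block (0.0554) and the loss of replicate 1 or 3 of 2 months or 2 or 3 of 5 months (0.0948 to 0.154). The change over time of Chpt1, Pcyt2 and Lpcat1 was not shown to differ between the genotypes in the edgeR test of the difference (adjusted p = 0.127, 0.992 and 0.518). Etnk2 did not pass over time in either genotype, at -0.20 in each (edgeR adjusted p = 0.475 and 0.0833). In KO-labelled libraries its fall passed with library size alone (-0.26, edgeR adjusted p = 0.0306), without a filter on low counts (-0.21, adjusted p = 0.00759) and without KO replicate 1 of 2 months (-0.30, adjusted p = 0.0126).

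The wider phospholipid network was examined through 54 further genes in 6 lists, of which 53 were named in the files. At 2 months, 3 of the 47 tested passed, all lower in KO-labelled libraries, where 1.78% of all genes were called lower. At 5 months 15 of 48 passed, 6 higher and 9 lower, where 8.90% and 9.51% of all genes were called higher and lower. The median log2 change of these genes was -0.05 at 2 months and -0.09 at 5 months.

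**Figure D5:**
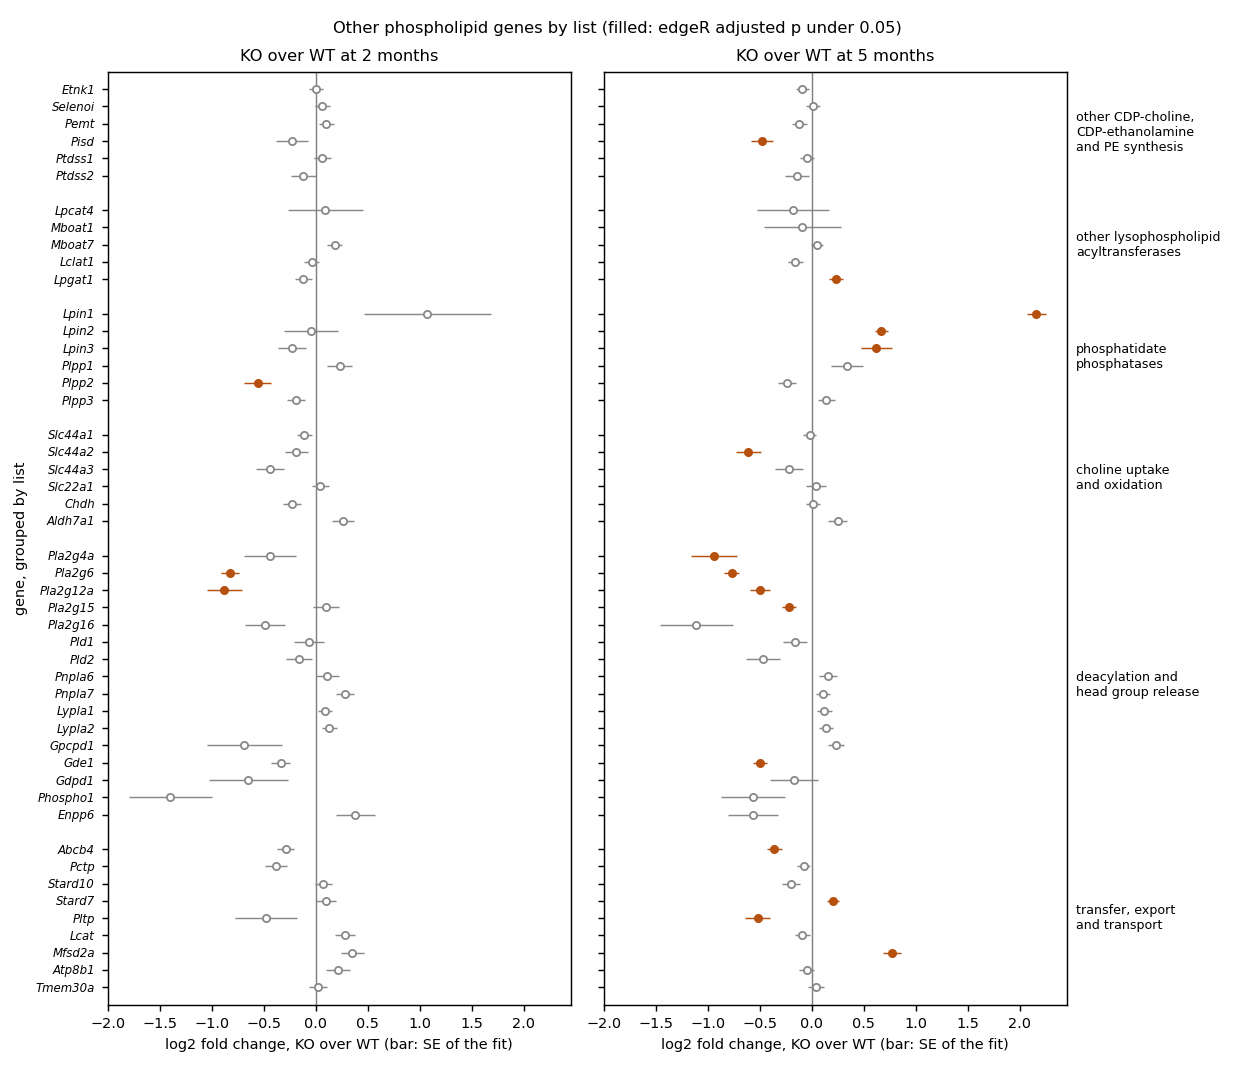
Log2 change in KO-labelled libraries over WT (horizontal axis, bar: SE of the edgeR fit) of the tested genes of the 6 phospholipid lists at 2 months (left) and 5 months (right), filled where the edgeR adjusted p was under 0.05. Filled at 2 months are Plpp2, Pla2g6 and Pla2g12a, all below 0, and at 5 months 15 genes, with Lpin1 furthest to the right at 2.16 and Pla2g4a furthest to the left at -0.94.

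Of 16 tested genes for phospholipid deacylation and head group release, 2 were called at 2 months and 5 at 5 months, all lower in KO-labelled libraries. Of all genes, 1.78% and 9.51% were called lower at these times. The list did not move in 1 direction as a whole: 6 of the 16 had a log2 change above 0 at 2 months and 5 at 5 months. The median log2 change over the list was -0.25 and -0.34. Pla2g6, a calcium-independent phospholipase A2, passed at both times. Its normalized CPM was 91.6, 110.1 and 105.7 in WT and 58.3, 53.5 and 61.1 in KO-labelled libraries at 2 months (log2 change -0.83, SE 0.0873, edgeR adjusted p = 0.00186). It was 90.9, 76.9 and 83.7 against 47.2, 48.3 and 51.4 at 5 months (log2 change -0.77, SE 0.0731, edgeR adjusted p = 1.85e-05). No KO-labelled library reached the WT range at either time.

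The secreted phospholipase Pla2g12a also passed at both times, at log2 changes of -0.88 and -0.50 (edgeR adjusted p = 0.0219 and 0.00235). The others called at 5 months were the cytosolic phospholipase Pla2g4a (-0.94), the lysosomal phospholipase Pla2g15 (-0.22) and the glycerophosphodiesterase Gde1 (-0.50). Pla2g4a was a low-level gene, at 5.18 ± 0.799 normalized CPM in WT and 2.66 ± 0.686 in KO-labelled libraries (SD, n = 3 each).

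Among the genes listed as phosphatidate phosphatases, 3 of 6 were called higher at 5 months, where 8.90% of all genes were, and none was called lower. The 3 were the lipins, which supply the diacylglycerol that Chpt1 and Cept1 consume. Lpin1 was at 98.6, 84.9 and 82.6 normalized CPM in WT and 441.4, 364.7 and 377.2 in KO-labelled libraries, a log2 change of 2.16 (SE 0.0902, edgeR adjusted p = 6.76e-08). Lpin2 was higher by 0.67 (edgeR adjusted p = 2.11e-05) and Lpin3 by 0.62 (adjusted p = 0.0111). Plpp2 was not called at 5 months, with a log2 change of -0.24 (edgeR adjusted p = 0.0747) and all KO-labelled libraries below all WT libraries. At 2 months Plpp2 alone of the 6 was called, lower by 0.56 in log2 units (-0.56, edgeR adjusted p = 0.0461), where 1.78% of all genes were called lower. Lpin1 then ranged from 80.7 to 167.5 in WT and from 116.2 to 402.2 in KO-labelled libraries, too widely to separate them (log2 change 1.07, SE 0.611, edgeR adjusted p = 0.446).

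Of 6 tested genes of the other CDP-choline, CDP-ethanolamine and PE synthesis enzymes, 1 was called at 5 months. This was Pisd, which makes PE from phosphatidylserine in mitochondria, and it was lower (-0.48, edgeR adjusted p = 0.00569), where 9.51% of all genes were called lower. Pemt, which methylates PE to PC in liver, had log2 changes of 0.10 and -0.12 between the genotypes (edgeR adjusted p = 0.501 and 0.295). Of 5 tested genes of the other lysophospholipid acyltransferases, 1 was called at 5 months, Lpgat1, which was higher (0.23, edgeR adjusted p = 0.0311), where 8.90% of all genes were. Of 6 tested choline uptake and oxidation genes, 1 was called, the transporter Slc44a2, which was lower (-0.61, edgeR adjusted p = 0.00301), where 9.51% of all genes were.

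Among 9 genes of phospholipid transfer, export and transport, 2 were called higher and 2 lower at 5 months, where 8.90% and 9.51% of all genes were. Mfsd2a, which imports lysophosphatidylcholine, rose by 0.77 in log2 units (edgeR adjusted p = 7.36e-05) and Stard7, a PC carrier, by 0.20 (adjusted p = 0.0294). Abcb4, the canalicular pump that puts PC into bile, fell by 0.36 (edgeR adjusted p = 0.00325) and Pltp, the plasma phospholipid transfer protein, by 0.52 (adjusted p = 0.0168).

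Over time, 23 of the 48 genes of the 6 lists passed in WT libraries (10 higher and 13 lower at 5 months, where 23.8% and 22.7% of all genes were called higher and lower) and 21 of 48 in KO-labelled libraries (8 higher and 13 lower, where all genes gave 22.7% and 22.2%). Pemt was among those higher in WT libraries (0.37, edgeR adjusted p = 0.00357). In the test of the difference between the genotype effects, 1 of 49 passed, Lpin3, where 1.57% of all genes tested did.

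The genes whose pattern over the 12 libraries was most like that of each called member other than Etnk2 were found by the root mean square difference of log2 normalized CPM, each gene centred on its own mean, among 13157 genes. For Lpcat2 they were Nckap1l (0.0787), Lum (0.114) and Neurl3 (0.118), where Lpcat2 itself varied by 0.487 about its mean. For Chka, which varied by 0.609, they were Fam213b (0.134), Rnd1 (0.164) and Ube2g2 (0.166). The closest to Pcyt1a were Zc3h7b (0.0488), Wdr11 (0.0597) and Prkacb (0.0641), and to Chpt1 Pdha1 (0.0879), Hsd17b4 (0.0973) and Iars2 (0.0991), where the members varied by 0.196 and 0.189. All values are descriptions over the same 12 libraries, which fall into 4 groups.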

How the data were processed

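Liver RNA was sequenced in 12 libraries, 3 for each genotype at 2 and 5 months of FFD. The authors deposited whole-number counts of reads per gene for each library, without normalization, on mm10. The paper names STAR as the aligner and the submitters' processing notes name HISAT2. The counting program, the annotation version and the strand setting are not given in the sources used here. All members had the coordinates and exon length of GENCODE M21. Gene names stored as dates (27) were restored from the gene identifiers.

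Libraries held 16367775 to 27452284 counts, so that members at a few CPM rest on about 100 counts or fewer and the abundant ones on far more. Each comparison had its own fit over all genes left by filterByExpr (edgeR 4.0.16, limma 3.58.1, R 4.3.3): TMM scaling, robust quasi-likelihood F-test, two-sided, Benjamini-Hochberg adjustment over all genes tested, threshold 0.05. Normalized CPM use TMM factors of all 12 libraries and are linear values, with mean and SD per group. The difference of the genotype effects was fitted on the 12 libraries together, with a mean for each of the 4 groups. The script was tested on simulated data.

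Alternatives were DESeq2 1.42.0, its size factors, library size alone, other filters, an unadjusted p under 0.05, a block for the replicate number, 1 joint fit of the 4 groups and the omission of each library in turn. Replicate numbers were checked for pairing on 5000 abundant genes, once group means were removed. At 2 months same-numbered libraries of the genotypes correlated at 0.218, 0.323 and 0.14, and those of unlike number at -0.273 to 0.113. The numbers may thus pair the libraries there, but no label states a pairing and the main fits had no block. At 5 months same-numbered libraries gave -0.0806, -0.0586 and -0.172. Between the times not every pair exceeded 0.1.

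The members, the 6 phospholipid lists and the 8 marker lists were chosen with earlier results of these data known. Named genes are the 10 members, Pparg, the listed genes that were called, with Pemt and Lpin1 at 2 months added after their values were seen, the marker genes, genes whose exons overlap a member, and the 3 genes most like each called member (mean of at least 1 CPM), which for Etnk2 are not reported here.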

Additional observations from a re-analysis of the deposited data

Results flagged for a closer look

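Lpin3, a phosphatidate phosphatase of the lipin family, was flagged because the effect of the genotype label differed between the times by a test of the difference itself. It was 1 of 49 genes of the phospholipid lists that passed, where 1.57% of all genes tested did. At 2 months it was at 8.62, 10.2 and 9.54 normalized CPM in WT libraries and 8.18, 7.47 and 8.56 in KO-labelled libraries. At 5 months it was at 5.39, 6.00 and 5.22 in WT libraries and 7.55, 8.15 and 9.72 in KO-labelled libraries. The KO-labelled libraries thus lay below the WT libraries at 2 months and above them at 5 months. The log2 changes were -0.23 (SE 0.133, edgeR adjusted p = 0.405) and 0.62 (SE 0.148, edgeR adjusted p = 0.0111), and their difference was 0.83 (SE 0.194, edgeR adjusted p = 0.0415), near the threshold, with no gene of the 6 lists left past it when library size alone set the scaling. No other gene of the members or the phospholipid lists was past the threshold in this edgeR test. DESeq2 called 1 member and 2 genes of the lists, where 594 of the 15127 genes tested were called.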

How the results depend on the processing

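The calls of Etnk2, Lpcat2 and Pcyt1a at 5 months held under every alternative, and the number of members called there stayed at 3 or 4. At 2 months, where 2 members were called, 1 was called with library size alone, 5 had an unadjusted p under 0.05, and 0 to 4 were called when a library was left out (4 without WT replicate 1, 0 without WT replicate 2 or 3 or KO replicate 1 or 3). Over all genes the 519 calls at 2 months became 2749 with an unadjusted p under 0.05, 988 with DESeq2 and 1562 without a filter. They became 817 with the block, 1153 in the joint fit and 117 to 1577 when a library was left out. In the lists, 3 calls at 2 months became 5 with DESeq2 and 5 with library size alone. For the change of the genotype effect between the times, 0 members were called by edgeR, 3 had an unadjusted p under 0.05, 1 was called with DESeq2, 1 without a filter and 0 to 1 when a library was left out (1 without WT replicate 1 of 5 months), and in the lists 1 call became 2 with DESeq2 and 0 with library size alone. The 238 calls over all genes for this difference became 2250 with an unadjusted p under 0.05 and 594 with DESeq2. They became 793 without a filter and 83 to 567 when a library was left out. Over time, leaving out a library gave 3 to 5 calls in WT libraries against 5 and 2 to 6 in KO-labelled libraries against 6, with 3 without WT replicate 3 of 5 months, 3 without KO replicate 1 of 2 months, and 2 without KO replicate 3 of 2 months or KO replicate 2 of 5 months. The cause of these changes was not tested.

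With the replicate block, 2, 3, 6 and 4 members were called at 2 months, at 5 months, over time in WT libraries and over time in KO-labelled libraries, and 0 for the difference. The block changed no member's call between the genotypes.

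Values near 0 changed sign, none of them called. With library size alone these were Cept1 at 2 months (-0.01) and Etnk2 for the difference (0.01), and without a filter Pcyt2 for the difference (0). When a library was left out, the log2 change ran from -0.45 to 0.20 for Chkb and -0.06 to 0 for Pcyt1a at 2 months, from -0.12 to 0.04 for Chpt1 and -0.08 to 0.02 for Cept1 at 5 months, from -0.33 to 0.06 for Etnk2 and -0.03 to 0.23 for Lpcat1 over time in WT libraries, from -0.18 to 0.02 for Lpcat3 over time in KO-labelled libraries, and from -0.04 to 0.07 for Pcyt2 and -0.25 to 0.13 for Etnk2 for the difference. Of all values of single members under the alternatives, 638 kept direction and side of the threshold, 32 newly passed it, 40 no longer passed it and 22 changed sign. Depth limits Chkb, at 0 to 30 counts, and to a lesser degree Lpcat1 and Lpcat2.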
